A study of Mus musculus with 12 samples.

Results

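Mouse epiblast stem cells (EpiSCs) are pluripotent lines whose nearest counterpart in the embryo is the postimplantation epiblast, and their unstimulated expression state is described here from the 3 arrays of untreated cells, out of 12 arrays in all. The 3 arrays were chosen by their sample titles, and no measured value entered that choice. The other 9 arrays hold cells given CHIR99021 (3 µM), an inhibitor of the kinase GSK3 that stabilises beta-catenin, XAV939 (2 µM), an inhibitor of tankyrase that stabilises Axin, or both compounds, with 3 arrays each. CHIR99021 was given for 2 h. XAV939 was given for 2 h by the sample labels and for 4 h by the design text. All 12 samples, untreated ones included, came from cells of genetic background 129 kept without serum for 12 h before RNA extraction, although a growth medium with 10% fetal bovine serum is also recorded for them. The cell type label is EpiSC, while the description field speaks of mouse embryonic stem cells. No line, clone, passage or sex is given, and no label ties the 3 untreated samples to separate cultures. The spread between arrays may therefore be technical, and p-values measure only that spread.

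Pluripotency exists in more than 1 state. Naive cells, such as embryonic stem cells held in the ground state, resemble the epiblast before implantation, depend on LIF and STAT3 signalling or on inhibition of GSK3 and MEK, and express Esrrb, Klf2, Klf4, Tfcp2l1 and Zfp42 beside the shared factors Pou5f1, Sox2 and Nanog. Primed cells depend on FGF and on activin or Nodal signalling and express Fgf5, Otx2, Pou3f1, Zic2 and Dnmt3b. The labels were therefore set against markers of both states, the signalling pathways that hold or end each of them, and the lineages into which such cells can differentiate.

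Values are log2 levels per gene as deposited, from the probe with the highest mean over the 12 arrays where a gene had several. Array probes differ in affinity, so a level or a percentile rank (the share of the 19938 measured genes at or below that level) describes the brightness of a probe and not the abundance of one transcript against another. Background was read from 1194 olfactory and vomeronasal receptor genes, which are transcribed in sensory neurons. Their means had a median of 4.26 and ran from 3.32 to 7.03. A gene was taken as above background when it exceeded the 95th percentile of these receptor genes on each of the 3 arrays (4.92, 4.98 and 5.03 for untreated 1, 2 and 3). By this rule 11180 genes, or 56.1% of all genes, were above background, 1031 were above it on 1 or 2 arrays and 7727 on none. Of the receptor genes themselves, 40 (3.35%) passed, with Olfr1372-ps1 at 7.03 the brightest. The median of all genes was 5.44, and 1108 genes (5.56%) had a mean over 10.

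**Figure D1:**
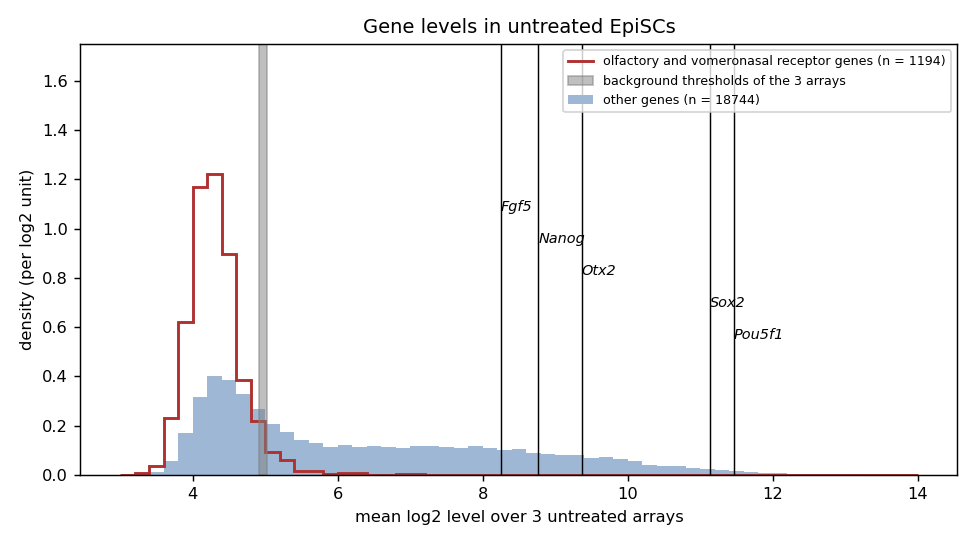
Distribution of the mean log2 level over the 3 untreated arrays (x axis) as a density per log2 unit (y axis), for 1194 olfactory and vomeronasal receptor genes (red outline) and the 18744 other genes (blue bars). The grey band spans the background thresholds of the 3 arrays, 4.92 to 5.03, and the vertical lines mark the 5 EpiSC markers, all of which lie between 8.25 and 11.46, to the right of every receptor gene.

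The 5 markers of the cell type were all above background on every array, and both the shared and the primed markers were among the brighter genes. Pou5f1, which encodes the pluripotency factor Oct4, had levels of 11.43, 11.49 and 11.46 on untreated 1, 2 and 3, a mean of 11.46 ± 0.03 (SD, n = 3) and a percentile rank of 99.01. Sox2, the DNA-binding partner of Oct4, read 11.21, 11.16 and 11.02, with a mean of 11.13 ± 0.10 and a rank of 98.4. Nanog, the homeobox factor that both states use, read 8.89, 8.69 and 8.73, with a mean of 8.77 ± 0.10 and a rank of 85.8. On each of these genes the 3 arrays lay far above the threshold, and no array was the highest for all of them. Fgf5, a secreted ligand used as a marker of the epiblast after implantation, read 8.23, 8.26 and 8.26, with a mean of 8.25 ± 0.02 and a rank of 81.0. Otx2, a homeobox factor of the primed state and later of the forebrain, read 9.34, 9.42 and 9.34, with a mean of 9.37 ± 0.05 and a rank of 90.3. All 5 markers thus went with the label EpiSC. Pou5f1, Sox2 and Nanog are shared with naive cells, so of the 5 only Fgf5 and Otx2 bear on the primed state.

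Genes of pluripotency that naive and primed cells share were above background in 13 of 14 measured cases, beside 56.1% of all genes, and their median level was 9.73. Utf1, a chromatin-associated factor of pluripotent cells, had the highest level at 11.62 ± 0.04. The zinc-finger factor gene Sall4 read 10.06 ± 0.02 and the RNA-binding protein gene Lin28a, whose product blocks let-7 maturation, read 9.80 ± 0.10. The surface molecules E-cadherin (Cdh1, 10.78 ± 0.03) and Epcam (10.51 ± 0.03) were also bright. Foxd3 (7.51 ± 0.04) and the alkaline phosphatase gene Alpl (7.07 ± 0.02) were lower but well past the threshold. Sox3, the SOX factor of the early ectoderm, was the exception: it read 5.21, 4.91 and 5.10 and passed on 2 arrays, missing on untreated 2.

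All 16 measured genes of the primed list were above background, with a median of 8.32. Among the transcription factors Zic2, a zinc-finger factor of the epiblast and neural plate, was the brightest at 11.12 ± 0.04, and the POU factor gene Pou3f1, also called Oct6, read 8.90 ± 0.04. The neighbouring Zic5 read 10.55 ± 0.08 by the probe used and 7.89 by its other probe. The de novo DNA methyltransferase gene Dnmt3b read 9.95, 9.96 and 9.95, an SD of 0.01. The adhesion genes Sema6a (9.75 ± 0.03) and Cldn6 (9.51 ± 0.17), a claudin of early embryonic epithelia, were bright as well. Cldn6 read 9.67, 9.51 and 9.33 on untreated 1, 2 and 3, and with Krt18 it had the widest spread of the list. Fgf8, a ligand of the streak and later of signalling centres, was the lowest member, with readings of 5.15, 5.32 and 5.27 that lay close to the threshold. It was the only primed gene not above the 99th percentile of the receptor genes.

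Genes of the naive state ranged from bright to background. Of 21 measured members, 11 (52.4%, close to the 56.1% of all genes) were above background on all 3 arrays, 2 on 1 array and 8 on none, and the list's median of 5.13 lay below the median of all genes. Esrrb, a nuclear receptor at the centre of the naive network, read 4.46, 4.47 and 4.34 and lay below the threshold on each array. Zfp42 (also called Rex1), a widely used reporter gene of naive cells, read 4.33, 4.56 and 4.68. Nr0b1 (4.17 ± 0.03), Nr5a2 (4.37 ± 0.02), Prdm14 (4.49 ± 0.16), Dppa3 (4.58 ± 0.08), Pecam1 (4.43 ± 0.09) and Tcl1 (4.26 ± 0.14) were likewise above background on no array. Klf4 read 4.95, 4.74 and 4.77 and passed on untreated 1 alone, while Tbx3 read 4.77, 5.04 and 4.98 and passed on untreated 2 alone. Tfcp2l1 (6.11 ± 0.09) and Klf2 (5.55 ± 0.03) were above background, Klf2 by a margin that a stricter background takes away on 1 array.

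Some members of the naive list were bright. Dppa2 (10.59 ± 0.09) and Dppa4 (9.12, 9.13 and 8.74), which encode partner proteins that bind chromatin, the FGF ligand gene Fgf4 (9.14 ± 0.10) and the Krüppel-like factor gene Klf5 (8.67 ± 0.03) had the highest levels. The homeobox factor gene Gbx2 followed at 6.73 ± 0.11. With the 99th percentile of the receptor genes as threshold, 6 of the 21 remained, namely those 5 and Tfcp2l1. By contrast, 13 of 14 shared and 15 of 16 primed genes remained. The 56.1% of all genes holds for the main threshold only, and the share past this stricter threshold is not given here. Counts with the stricter threshold, here and below, therefore cannot show whether a list lost a larger share than all genes did. For Dppa4, untreated 3 lay apart from the others.

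**Figure D2:**
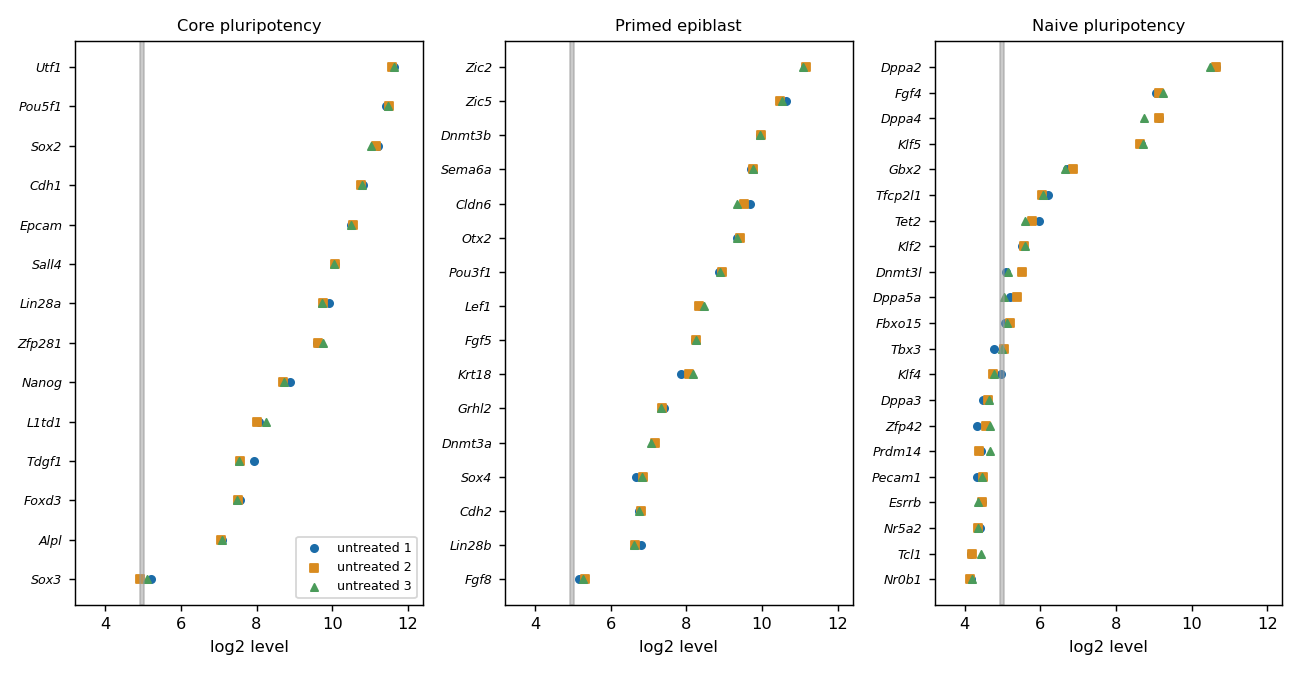
Log2 level (x axis) of each measured member (y axis) of the shared pluripotency, primed epiblast and naive pluripotency lists on the 3 untreated arrays (circle, square and triangle), with the background thresholds as a grey band. All primed genes lie to the right of the band, while Esrrb, Zfp42, Prdm14, Nr5a2, Nr0b1, Tcl1, Pecam1 and Dppa3 lie to its left on all 3 arrays.

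MicroRNA genes were read from a list of pluripotent cells and a list of differentiated cells. The cluster of miR-302 and miR-367 genes, which is transcribed as 1 unit in pluripotent cells and whose miR-302 members are grouped by their seed (bases 2 to 8 of the mature strand), was well above background. Mir302d read 10.64, 10.92 and 10.76, and had the highest mean of the 297 measured microRNA genes at 10.77 ± 0.14. Mir302a read 10.17 ± 0.26, Mir302b 10.00 ± 0.11, Mir302c 9.76 ± 0.11 and Mir367 7.47 ± 0.18. Labelled total RNA was hybridised, so these levels can include precursor RNA and are no measure of the mature strand. The mature sequences of 4 members of this cluster, of miR-363 and miR-17 from other clusters, and of 2 members of the let-7 family, which marks differentiated cells, are shown because their seeds (in capitals; RefSeq, GRCm38.p6) define the families.
miR-302b-3p: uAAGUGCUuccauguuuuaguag
miR-302d-3p: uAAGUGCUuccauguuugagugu
miR-302c-3p: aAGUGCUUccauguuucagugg
miR-367-3p: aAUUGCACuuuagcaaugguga
miR-363-3p: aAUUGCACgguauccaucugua
miR-17-5p: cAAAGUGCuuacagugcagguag
let-7a-5p: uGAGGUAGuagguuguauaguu
let-7g-5p: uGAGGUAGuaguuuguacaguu
The strands of miR-302b and miR-302d begin with the same seed, and that of miR-302c, as RefSeq gives it, starts 1 base further in, so that its capitals are shifted against theirs.

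Of the measured microRNA genes, 92 (30.98%) were above background, against 14 of 18 in the pluripotent list and 2 of 15 in the list of differentiated cells. Genes whose mature strand carries the seed AUUGCAC of miR-367 and miR-363 were above background in 5 of 6 cases. Mir363, from the X-linked cluster of Mir106a, read 7.04 ± 0.25, and Mir25, from another cluster, read 6.01 ± 0.28. Genes with the seed AAAGUGC of miR-17 were above background in 2 of 6 cases, with Mir17 at 5.06 ± 0.08 and Mir20a at 4.35 ± 0.02. Mir17 and Mir106a, and Mir9-1 of the list of differentiated cells, passed the 99th percentile of the receptor genes on no array. Among 9 genes with the let-7 seed GAGGUAG, 2 were above background. Mirlet7d read 6.04, 6.09 and 6.06, whereas Mirlet7a-1 (4.54 ± 0.13) and Mirlet7g (4.11 ± 0.10) were above it on no array. The muscle microRNA genes Mir1a-1 (4.17 ± 0.10) and Mir133a-1 (3.85 ± 0.03) and the blood microRNA gene Mir142 (3.96 ± 0.19) were at the level of the receptor genes, as were others of that list. Members of the miR-290 cluster, which naive cells express strongly, were not analysed here.

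Wnt signalling, the pathway that the compounds of the series address, starts with secreted Wnt ligands that bind Frizzled and LRP receptors. Without a ligand, a destruction complex of Axin, APC, CK1 and GSK3 marks beta-catenin for degradation, and with a ligand beta-catenin reaches the nucleus and acts with TCF and LEF factors. Of 66 measured pathway genes 44 (66.7%) were above background, beside 56.1% of all genes, and they were spread unevenly over the roles. Among the 19 ligand genes 4 were above background. Wnt8a, a ligand of the epiblast and streak, read 7.95, 7.95 and 7.80, and the other 3 (Wnt9b, Wnt4 and Wnt5b) had means between 5.28 and 5.49, none of them past the 99th percentile of the receptor genes on all 3 arrays. Wnt4 was at background by its other probe. Wnt3, the ligand needed for the primitive streak, read 5.25, 5.06 and 4.93, so that it passed on untreated 1 and 2 and not on untreated 3. Wnt3a read 4.35 ± 0.01 and was above background on no array.

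The machinery that receives a Wnt signal was present almost throughout. Of 12 receptor genes 10 were above background, led by Fzd7 (8.92 ± 0.14) and the co-receptor gene Lrp6 (8.60 ± 0.03). Fzd4 and Fzd10 passed on 2 arrays each. Fzd1 had the widest spread of the pathway, with readings of 6.54, 6.70 and 6.12. The R-spondin receptor gene Lgr4 read 9.63 ± 0.07 and Lgr5, a stem-cell marker and Wnt target, read 7.07, 7.04 and 7.06, whereas Lgr6 read 4.45 ± 0.08 and did not pass. Wls (8.03 ± 0.08), the carrier needed for Wnt secretion, and the acyltransferase gene Porcn (6.48 ± 0.11) were above background.

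All 12 genes of the destruction complex and its regulators passed. They include both molecular targets of the compounds: the GSK3 genes Gsk3b (9.75 on each array) and Gsk3a (9.43 ± 0.04), and the tankyrase genes Tnks2 (11.23 ± 0.02) and Tnks (9.34 ± 0.01). Axin1 read 7.54 ± 0.05 and Apc 9.18 ± 0.02. Axin2, an Axin gene that beta-catenin itself induces, was the lowest of this role, at 5.77, 6.04 and 6.03. All 9 nuclear genes passed as well. Ctnnb1, which encodes beta-catenin, read 10.91 ± 0.07. Tcf7l1, whose product acts mainly as a repressor in pluripotent cells, read 9.69 ± 0.05, Lef1 8.39 ± 0.08 and Tcf7l2 7.16 ± 0.12. Among the secreted and membrane inhibitors the secreted Frizzled-related genes Sfrp1 (10.18, 10.16 and 10.16) and Sfrp2 (7.81 ± 0.07) were bright. Znrf3, a ubiquitin ligase that removes Frizzled, read 6.58 ± 0.11. Dkk1 (4.68 ± 0.01), Notum (4.84 ± 0.11), Rnf43 (4.45 ± 0.09) and Wif1 (4.47 ± 0.06) were above background on no array.

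**Figure D3:**
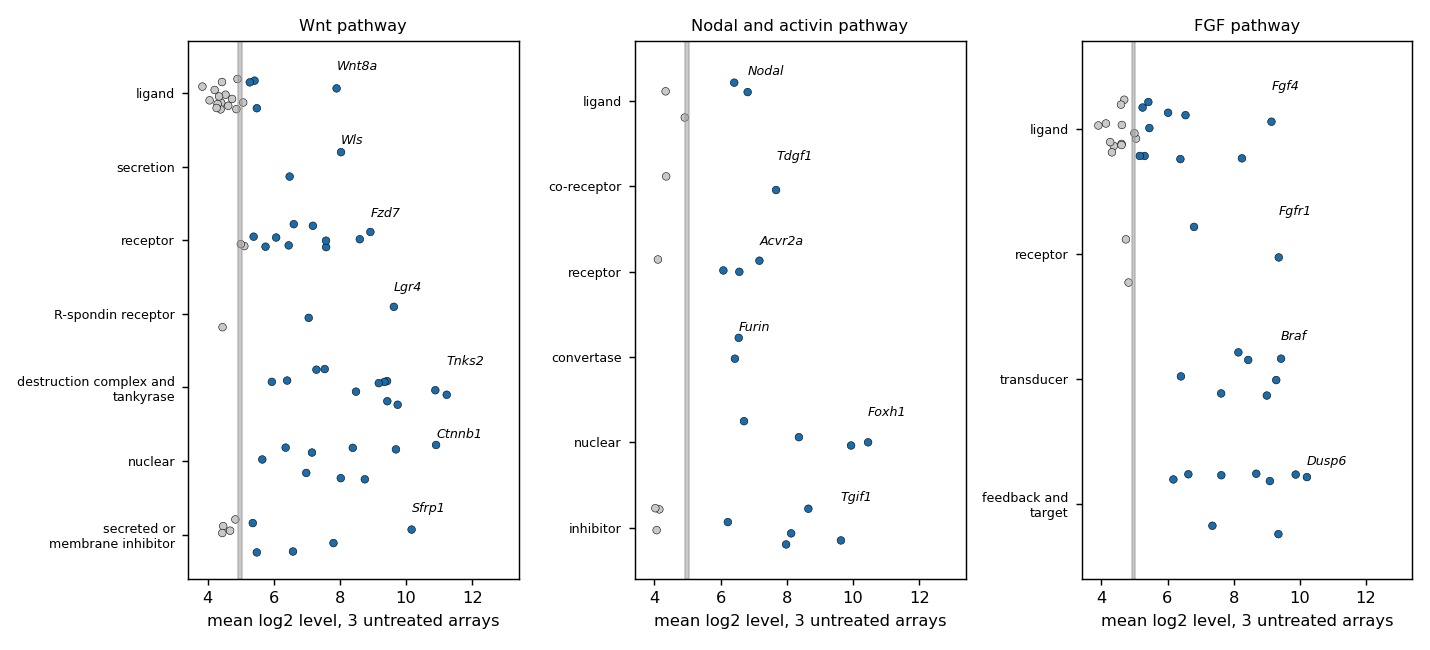
Mean log2 level over the 3 untreated arrays (x axis) of the measured genes of the Wnt, Nodal and activin, and FGF pathways, by role (y axis; vertical offsets within a role only separate the points). Blue points were above background on all 3 arrays and grey points were not, the grey band spans the thresholds, and the brightest gene of each role is named; 15 of 19 Wnt ligand genes are grey, while every point of the destruction complex is blue.

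Nodal and activin signalling holds the primed state. Their ligands bind type I and type II activin receptors, Nodal with the help of a co-receptor, and act through Smad2, Smad3, Smad4 and the partner Foxh1. Of 24 measured genes 17 (70.8%) were above background, beside 56.1% of all genes. All 17 were also past the 99th percentile of the receptor genes. Nodal itself read 6.92, 6.78 and 6.75, with a rank of 65.7, and the related ligand gene Gdf3 read 6.41 ± 0.14. The activin subunit genes Inhba (4.34 ± 0.15) and Inhbb (4.92 ± 0.18) were not above background on all 3 arrays. Foxh1 was the brightest gene of the pathway, at 10.45, 10.48 and 10.44. Smad4 read 9.94 ± 0.04, Smad2 8.37 ± 0.06 and Smad3 6.71 ± 0.06.

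Among the receptors Acvr2a (7.17 ± 0.03), Acvr2b (6.57 ± 0.04) and Acvr1b (6.08 ± 0.17) passed and Acvr1c, the receptor Alk7, did not (4.11 ± 0.04). The co-receptor gene Tdgf1, also called Cripto, read 7.93, 7.57 and 7.53, with untreated 1 above the others, and its paralog Cfc1 read 4.35 ± 0.05. The genes of the feedback antagonists of Nodal, which Nodal signalling normally induces in the embryo, lay at the level of the receptor genes: Lefty1 read 3.93, 4.18 and 4.08, Lefty2 4.28, 3.92 and 4.24, and Cer1 3.87, 4.06 and 4.16. No reading of these 3 genes passed the threshold. Fst, which encodes follistatin, the secreted antagonist of activin, read 7.88, 8.08 and 7.97, and the nuclear repressor gene Tgif1 read 9.64 ± 0.08.

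FGF ligands signal through receptor tyrosine kinases, RAS and ERK, and ERK induces genes that damp the pathway. Of 42 measured genes 28 (66.7%) were above background, beside 56.1% of all genes. Among 22 ligand genes 10 passed, with Fgf4 (9.14 ± 0.10) and Fgf5 (8.25 ± 0.02) far above the others, the next being Fgf11 at 6.54 ± 0.15. Fgf2, which is commonly supplied to EpiSC cultures, read 4.69 ± 0.08 and passed on no array. Fgfr1 read 9.33, 9.31 and 9.45 and Fgfr2 6.87, 6.70 and 6.83, whereas Fgfr3 (4.82 ± 0.04) and Fgfr4 (4.74 ± 0.16) passed on no array. The 7 measured transducer genes all passed, from Grb2 (6.40 ± 0.11) to Braf (9.43 ± 0.08). All 9 feedback and target genes passed. The ERK phosphatase gene Dusp6 read 10.21, 10.19 and 10.24, and the ETS factor gene Etv5 9.83, 9.83 and 9.95. Spry4, a Sprouty inhibitor, had the widest spread of the pathway, at 7.62, 7.34 and 7.91, and the immediate early gene Egr1 read 6.63 ± 0.14.

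The LIF pathway, which supports naive cells, and the BMP pathway, which acts in both self-renewal and differentiation, were also measured. Their shares above background were 71.4% and 76.5%, beside 56.1% of all genes. In the LIF pathway 5 of 7 genes passed: the receptor genes Lifr (6.58 ± 0.04) and Il6st (7.65 ± 0.07) and the transducer genes Jak1 (8.74 ± 0.04), Jak2 (6.34 ± 0.13) and Stat3 (6.81 ± 0.16). The ligand gene Lif (4.33 ± 0.05) and the STAT3 target gene Socs3 (4.76 ± 0.07) were above background on no array. The probe used for Socs3 lists no RefSeq transcript of that gene, and its other probe, which does, read 4.80. In the BMP pathway 13 of 17 genes passed. The receptor genes Bmpr1a (9.33 ± 0.09) and Bmpr2 (8.26 ± 0.09) were the brightest of it besides Smad5 (8.40 ± 0.01). The target genes Id1 (5.52 ± 0.03), Id2 (7.13 ± 0.16) and Id3 (5.58 ± 0.14) passed, and with the 99th percentile of the receptor genes 8 of 17 BMP genes remained.

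Lineage lists differed in how many of their genes passed, beside 56.1% of all genes. That share belongs to the main threshold and not to the stricter one. Of 15 genes of the primitive streak and mesendoderm 5 passed, and 3 with the stricter threshold: Wnt8a, the T-box factor gene Eomes (7.12, 7.16 and 7.06) and Bmp4 (6.11 ± 0.11). Mixl1 (4.75 ± 0.09), Mesp1 (4.10 ± 0.10), Tbx6 (4.71 ± 0.06) and Evx1 (4.58 ± 0.03), factors of the streak and early mesoderm, passed on no array, and Gsc, a gene of the organiser, passed on 2. Genes of mesoderm derivatives passed in 3 of 14 cases and in 0 with the stricter threshold; Hba-x, an embryonic globin gene, read 3.97 ± 0.08. Of 16 endoderm genes 9 passed, a share close to that of all genes, and 3 passed with the stricter threshold, namely Sparc (10.41 ± 0.03), which encodes a matrix protein that many cell types make, Dab2 (6.48 ± 0.10, and 4.29 by its other probe) and the nuclear receptor gene Hnf4a (5.68 ± 0.05). Of the 7 endoderm factor genes 4 passed. Besides Hnf4a these were Gata6 (5.60 ± 0.20), Foxa1 (5.18 ± 0.07) and Sox7 (5.07 ± 0.02). With the stricter threshold Gata6 passed on 2 arrays and Foxa1 and Sox7 on none. The endoderm factor genes Sox17 (4.26 ± 0.06) and Gata4 (4.61 ± 0.12) and the yolk sac genes Afp (4.39 ± 0.02) and Ttr (4.44 ± 0.09) passed on no array.

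Of 14 neural genes 9 passed (64.3%, beside 56.1% of all genes), and 6 with the stricter threshold. Stmn2, a tubulin-binding protein gene best known from neurons, read 10.85, 10.95 and 10.99, and the intermediate filament gene Nes, which neural progenitors and other immature cells express, read 7.59 ± 0.08. The neural plate factor genes Sox1 (5.43 ± 0.01) and Pax6 (5.43 ± 0.04) lay above the 95th percentile of the receptor genes on each array and not above the 99th on any. Trophoblast genes passed in 3 of 9 cases, with Plet1 at 5.80 ± 0.07 and Cdx2 at 4.37 ± 0.17, the latter on no array. Germ cell genes passed in 5 of 10 cases, a share close to that of all genes. With the stricter threshold Tfap2c passed on no array and Piwil2 on 2. Sycp3, which encodes a protein of the meiotic chromosome axis, read 8.61, 8.60 and 8.41, and Mael, a gene of the piRNA pathway, 7.58 ± 0.05, whereas Ddx4 (4.82 ± 0.09) and Dazl (4.85 ± 0.08) passed on no array.

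Hox genes, which set position along the body axis, were mostly at background. Of 40 genes of the Hox and Cdx families 4 (10.0%) were above background, beside 56.1% of all genes. With the stricter threshold 1 was: Hoxb1, the first Hox gene to appear in the streak, at 6.36, 6.33 and 6.18. The 3 Cdx genes, which encode activators of Hox genes, were between 4.37 and 4.76.

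**Figure D4:**
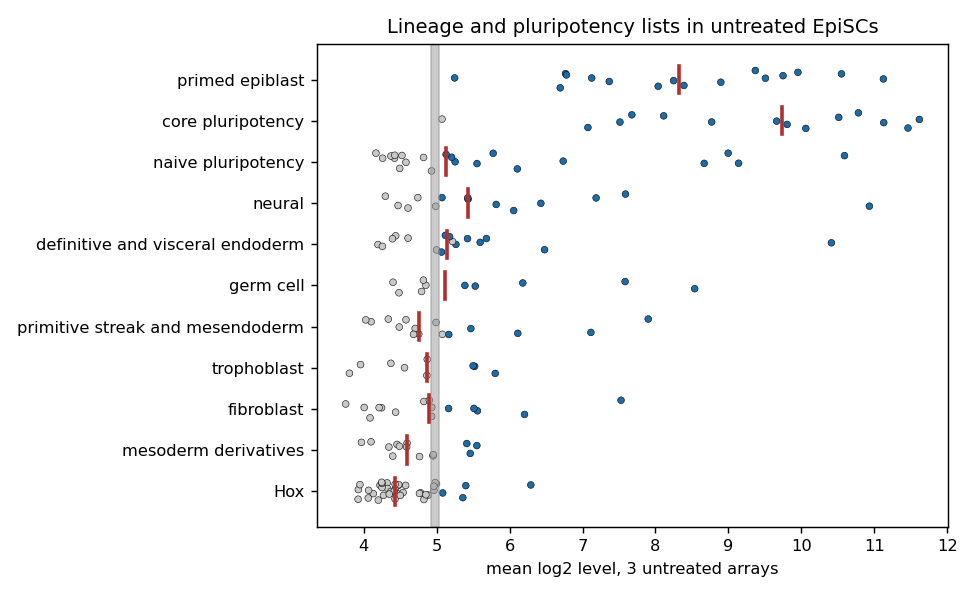
Mean log2 level over the 3 untreated arrays (x axis) of the measured genes of 11 lists (y axis; vertical offsets within a list only separate the points). Blue points were above background on all 3 arrays, grey points were not, the red bar is the median of the list and the grey band spans the thresholds; the medians are 8.32 for primed and 9.73 for shared pluripotency genes, 5.13 for naive genes and 4.59 for mesoderm derivatives.

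Fibroblasts, which are often used to support cultures of this kind, were looked for by 15 genes. Of these 5 (33.3%) passed, beside 56.1% of all genes. With the stricter threshold 2 passed: Thy1 (7.57, 7.48 and 7.53), a surface protein that several cell types carry, and Fbln1 (6.20 ± 0.07). The collagen genes Col1a1 and Col1a2 read 5.51 ± 0.05 and 5.16 ± 0.11 and passed on all 3 arrays, as did the actin gene Acta2 (5.56 ± 0.20). With the stricter threshold Col1a1 and Acta2 passed on 1 array each and Col1a2 on none. The surface receptor gene Pdgfrb, with a mean of 4.93, passed on some arrays but not on all 3. The matrix genes Dcn (4.09 ± 0.09), Lum (3.75 ± 0.03) and Postn (4.21 ± 0.12) and the surface receptor gene Pdgfra (4.44 ± 0.19) were above background on no array. The mean level of the whole list ran from 4.89 to 5.01 on the untreated arrays and from 4.86 to 4.91 on the treated arrays.

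Epithelial genes were all above background, beside most of the mesenchymal ones. The share of all genes was 56.1%. All 10 epithelial genes passed, among them the junction genes Tjp1 (10.31 ± 0.03) and Cldn7 (8.04 ± 0.14) and the splicing factor gene Esrp1 (9.72 ± 0.05). Of 8 mesenchymal genes 7 passed, with vimentin (Vim, 9.82 ± 0.04), fibronectin (Fn1, 8.44 ± 0.10) and N-cadherin (Cdh2, 6.77 ± 0.03) above background next to E-cadherin. Snai1, the factor that represses E-cadherin during gastrulation, read 5.26, 5.15 and 5.34, close to the threshold, and Twist1 passed on 1 array.

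Chromatin regulators were above background in 15 of 15 cases, beside 56.1% of all genes. By the 99th percentile of the receptor genes Tet2 passed on 2 arrays and Dnmt3l on 1. Eed read 9.59 by the probe used and 4.00 by its other probe, which lists no RefSeq transcript of Eed. The Polycomb genes Ezh2 (11.32 ± 0.03), Jarid2 (11.18 ± 0.03) and Suz12 (10.83 ± 0.04) were bright. Of the TET genes, whose products oxidise methylcytosine, Tet1 read 11.19 ± 0.07, Tet3 6.39 ± 0.11 and Tet2 5.77 ± 0.18. Tet2 gave readings of 5.95, 5.78 and 5.59 on untreated 1, 2 and 3. Dnmt3l, the cofactor of the de novo methyltransferases, read 5.10, 5.51 and 5.15. Imprinted genes passed in 13 of 14 cases, from the paternally expressed Peg10 (11.12 ± 0.08) and Mest (10.97 ± 0.07) to the maternally expressed Cdkn1c, at 5.31 on each array; Zim1 passed on 1 array. Xist, the RNA that coats an inactive X chromosome, read 6.65, 6.65 and 6.76, and the Y-linked Kdm5d, Uty and Eif2s3y lay between 3.93 and 4.37 and passed on no array.

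Metabolic and other general genes were bright. All 14 genes of glycolysis and glucose uptake passed, led by the kinase gene Pgk1 (12.38 ± 0.09) and the glucose transporter gene Slc2a1 (12.26 ± 0.08). Hk1 read 10.72 by the probe used, which lists no RefSeq transcript of Hk1, and 6.09 by the probe that does. All 11 housekeeping genes passed, from Gusb (5.66 ± 0.03) to Actb (13.51 ± 0.04). All 6 subunit genes of the MCM helicase, which opens replication origins, were between 10.10 and 11.58. Ribosomal protein genes passed in 59 of 61 cases and proteasome genes in 36 of 39, while cytochrome P450 genes passed in 10 of 65, keratins in 7 of 48 and interleukins in 4 of 29. The share of all genes was 56.1%. Of the BCL2 family Mcl1 (9.65 ± 0.14), which protects from apoptosis, Bak1 (8.93 ± 0.05) and Bcl2l11 (7.81 ± 0.06), which promote it, and Bcl2 (7.15 ± 0.17) passed, and Pmaip1 (4.44 ± 0.08) did not. The p53 antagonist gene Mdm2 read 9.89 ± 0.03.

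Among the 20 brightest genes were Actb, the metallothionein gene Mt2 (13.30 ± 0.05), the chaperone genes Hspa8 (13.13 ± 0.03) and Hsp90aa1 (13.04 ± 0.04), and the ribosomal protein genes Rps6, Rpl10a, Rpl10, Rpl41, Rpl21 and Rpl28, at 12.93 to 13.24. Each of these ribosomal protein genes has several probes and processed copies of near-identical sequence elsewhere in the genome, so their levels cannot be assigned to 1 locus. The brightest of all by the probe used was Baiap2l1, at 13.78. That probe lists no RefSeq transcript of the gene, and the probe that does read 7.48. Among protein-coding genes 319 of 18556 (1.72%) rested on a probe of this kind, and of the listed genes Socs3 and Hk1 did.

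The level of a gene went with the sequence composition of its promoter. A window of 300 bases (250 before to 50 after the RefSeq start, GRCm38.p6) was given for 15006 of 18556 protein-coding genes, and a window was called CpG-rich when at least 50% of it was G or C and its CpG count was at least 0.6 of that expected from the base content. Where a gene had several windows, the first listed was used. Of all windows used 50.4% were CpG-rich. The share was 72.3% for genes above background, 20.03% for genes above background on no array with receptor genes left out, and 0% (0 of 1013) for receptor genes. With receptor genes left out it went from 10.9% in the dimmest 10% of genes to 84.9% in the brightest 10%. The letters TATAAA, on either strand, stood in 12.2% of all windows. The share was 6.80% for genes above background and 40.5% for receptor genes. It was 16.9% for genes above background on no array with receptor genes left out. The median share of G and C was 35.3% in receptor windows and 61.7% in windows of genes above background. Genes are not independent replicates, so these shares are a description.

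The lists are small, and they varied. Among bright lists 11 of 13 glycolysis and 8 of 9 housekeeping windows were CpG-rich. Among dim lists 3 of 11 windows of mesoderm derivatives and 1 of 10 fibroblast windows were, but 10 of 12 neural windows were too. The counts were 5 of 11 for shared pluripotency, 5 of 10 for primed and 6 of 12 for naive windows. These are near the 50.4% of all windows, although those lists differed widely in level. The windows of Fgf5, Pou5f1 and Olfr1 are shown because they combine a high level with many CpGs, a high level with few, and a background level with almost none (CG in capitals). That of Fgf5 at chr5:98253934-98254233 on the plus strand holds 29 CpGs, that of Pou5f1 at chr17:35505782-35506081 on the plus strand, 1 of 2 listed for the gene, holds 11 CpGs, and that of Olfr1 at chr11:73399446-73399745 on the minus strand holds 1.
Fgf5: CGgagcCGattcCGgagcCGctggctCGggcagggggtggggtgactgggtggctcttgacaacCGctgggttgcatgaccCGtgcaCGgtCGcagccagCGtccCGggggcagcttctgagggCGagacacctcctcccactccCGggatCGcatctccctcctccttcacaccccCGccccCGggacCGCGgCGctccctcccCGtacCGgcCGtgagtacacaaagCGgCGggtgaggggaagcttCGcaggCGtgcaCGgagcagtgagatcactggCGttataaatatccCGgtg
Pou5f1: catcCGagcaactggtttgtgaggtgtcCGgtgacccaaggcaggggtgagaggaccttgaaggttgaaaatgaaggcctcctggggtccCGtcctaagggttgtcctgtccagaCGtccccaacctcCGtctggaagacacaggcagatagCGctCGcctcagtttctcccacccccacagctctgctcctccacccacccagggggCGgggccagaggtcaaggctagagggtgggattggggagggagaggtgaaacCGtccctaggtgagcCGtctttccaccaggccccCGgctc
Olfr1: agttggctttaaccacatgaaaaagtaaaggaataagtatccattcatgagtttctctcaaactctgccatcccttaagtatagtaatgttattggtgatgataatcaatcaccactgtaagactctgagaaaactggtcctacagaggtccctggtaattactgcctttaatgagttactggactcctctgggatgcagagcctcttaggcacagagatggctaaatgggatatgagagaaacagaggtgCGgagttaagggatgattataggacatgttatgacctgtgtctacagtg
Fgf5 read 8.25, Pou5f1 11.46 and Olfr1 4.25 on average. The CpG count was 0.83 of that expected for Fgf5, 0.37 for Pou5f1 and 0.08 for Olfr1. Otx2 (0.46, for 1 of 4 listed windows) and Nanog (0.19, for 1 of 2) were also below the limit of 0.6, and Sox2 (0.82) and Dnmt3b (0.69) above it.

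The 3 untreated arrays were close to each other. The median SD of a gene over the 3 arrays was 0.09, 93.1% of genes had an SD under 0.2, and 12 genes, 5 of them above background, had a range over 1. Across genes, which are not independent replicates, the correlation was 0.9974 between untreated 1 and 2, 0.9963 between 1 and 3 and 0.9968 between 2 and 3, while untreated and treated arrays correlated at 0.9943 to 0.9973. Above background the widest ranges belonged to Senp8 (7.07, 6.75 and 5.97), Zfp931 (6.99, 7.05 and 5.94), H2bc9 (7.76, 8.24 and 7.15), Trmt12 (5.65, 6.69 and 6.16) and Olfr767 (6.77, 6.39 and 7.39). The next were the small nucleolar RNA genes Snora44 and Snora31, Rpp25, Mir19b-2, Mettl23, Zfp980 and Ppcs, with ranges of 0.81 to 0.98. Senp8, Zfp931, H2bc9 and Zfp980 were lowest on untreated 3, and Mir19b-2 was the only listed gene among these 12.

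Untreated 3 had a narrower distribution than the other arrays of the series. The SD of all its gene values was 2.02, against 2.08 and 2.05 for untreated 1 and 2 and 2.05 to 2.11 for the treated arrays. Relative to the mean of untreated 1 and 2, its median difference was 0.07 in the dimmest of 10 equal bins of genes and -0.07 in bin 7. Differences of this size are close to the median SD of a gene, and they touch every comparison of untreated with treated arrays below.

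**Figure D5:**
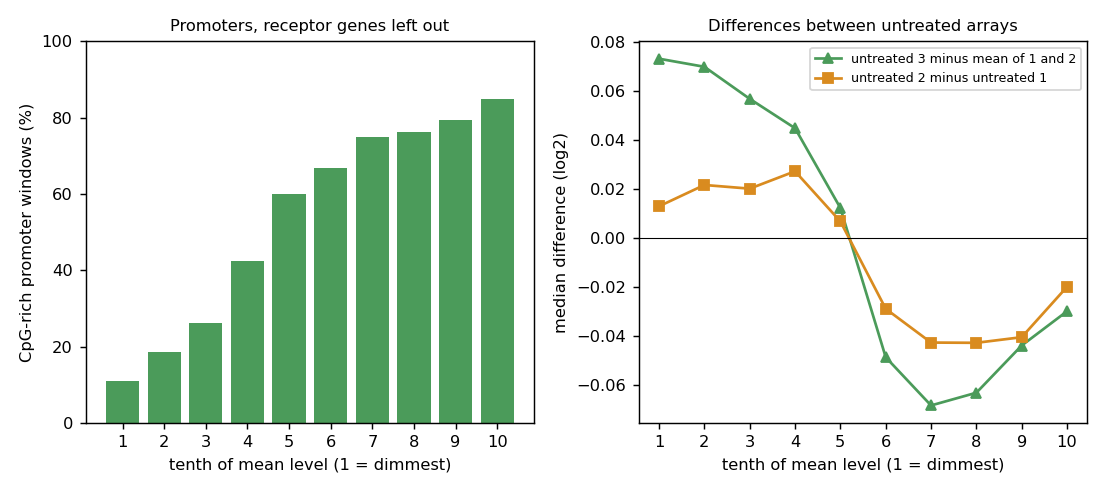
Left, share of CpG-rich promoter windows (y axis, percent) in 10 equal bins of genes by mean log2 level in untreated cells (x axis), with receptor genes left out; the bars go from 10.9% to 84.9%. Right, median log2 difference between untreated arrays (y axis) in the same kind of bins over all genes (x axis), for untreated 3 minus the mean of untreated 1 and 2 (triangles) and for untreated 2 minus untreated 1 (squares); both lines cross 0 between bins 5 and 6.

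Untreated cells were then compared with the 9 treated arrays by limma over all genes, with the mean of the 3 treated groups minus the untreated mean as the difference. Most baseline genes did not pass: 32 of 19938 genes were called (0.16%), 27 higher in treated cells (0.135%) and 5 lower (0.0251%), and 3013 genes had an unadjusted p under 0.05. None of the 14 shared pluripotency genes and none of the 16 primed genes was called. With 0.16% of all genes called, lists of this size would mostly hold none, so this says little about them. Pou5f1 differed by 0.01 (SE 0.06) and Sox2 by 0.10 (SE 0.06). Fgf5 and Otx2 each differed by -0.12 (SE 0.08 and 0.06), and 8 of 9 treated arrays were below the lowest untreated array for each (limma adjusted p = 0.496 and 0.386). Nanog differed by 0.24 (SE 0.08), with 6 of 9 treated arrays above the highest untreated array, and did not pass (limma adjusted p = 0.184). How many of all genes had as many treated arrays outside the untreated range was not counted.

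Of the genes on the lists 8 of 437 were called, all higher in treated cells: Fst, Nodal, Mir106a, Gbx2, Znrf3, Axin2, Zeb2 and Wnt8a. The untreated level of Nodal, 6.82 ± 0.09, lay between that with XAV939, 6.35 ± 0.01, and those with CHIR99021, 8.58 ± 0.09, and with both compounds, 7.84 ± 0.19. Its mean difference was 0.77 (SE 0.07, limma adjusted p = 0.000181). Fst had the same order, with 7.98 ± 0.10 in untreated cells, 7.45 ± 0.13 with XAV939, 9.79 ± 0.04 with CHIR99021 and 9.13 ± 0.19 with both, and a mean difference of 0.81 (SE 0.08, limma adjusted p = 0.000181). For each of these 2 genes, which were chosen by the same test, no array of one group overlapped another group. Gbx2 read 6.73 ± 0.11 in untreated cells, 6.55 ± 0.14 with XAV939, 7.87 ± 0.05 with CHIR99021 and 7.26 ± 0.15 with both.

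Other genes lower in untreated than in treated cells included genes known from stress responses. Atf3, a stress-induced transcription factor gene, read 8.45, 8.35 and 8.10 in untreated cells and between 8.75 and 9.23 in treated cells (difference 0.60, SE 0.09, limma adjusted p = 0.0162). Ddit4, an inhibitor of mTOR signalling, read 9.52, 9.51 and 9.36 against 9.75 to 10.22 (0.55, SE 0.07). Ppp1r15a, a phosphatase subunit gene of the stress response, read 7.45, 7.29 and 7.05 against 7.57 to 8.03 (0.53, SE 0.09), and the Notch ligand gene Dll1 read 5.95, 5.85 and 5.72 against 6.11 to 6.70 (0.50, SE 0.08). For these 4 genes all 9 treated arrays were above the highest untreated array, and untreated 3 was the lowest of all. The 4 genes were chosen by the same test, so this separation adds no support of its own. Bhlhe41, a repressor gene of the circadian clock, differed by 0.53 (SE 0.09).

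The 5 genes higher in untreated cells were Mab21l2, Dido1, Gm11564, Klhl24 and Pdgfb. Mab21l2 read 5.94, 6.22 and 6.39 in untreated cells and differed by -0.67 (SE 0.11, limma adjusted p = 0.0252), with the XAV939 arrays, up to 5.97, overlapping the untreated ones. Klhl24 read 9.66, 9.72 and 9.79, with all 9 treated arrays below, and differed by -0.35 (SE 0.06). Klhl24 too was chosen by this test, so that separation is no further support. The untreated level of Dido1, 8.41 ± 0.10, was within the range of the XAV939 arrays, 8.35 to 8.49, and its difference of -0.51 (SE 0.06) came with 7.60 ± 0.11 under CHIR99021 and 7.66 ± 0.02 under both compounds. The count of 32 rested on single arrays. Without untreated 1, 2 and 3 it was 14, 8 and 2, and the 2 genes kept without untreated 3 were Fst and Nodal, which alone kept their call in each of 19 alternative fits. Leaving out CHIR99021 arrays 1, 2 and 3 gave 15, 17 and 11 genes, leaving out XAV939 arrays 1 and 3 gave 12 and 21, and leaving out arrays 1, 2 and 3 with both compounds gave 14, 12 and 19. The filter on dim genes gave 72 genes, and array weights gave 265. With quantile normalization 25 genes were called, 16 higher and 9 lower, and with array weights 168 were higher and 97 lower.

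Any difference among the 4 groups was tested with the F statistic of the same fit, and 231 genes (1.16%) passed, 209 of the 11180 genes above background in untreated cells and 12 of the 7727 above it on no array; 3326 genes had an unadjusted p under 0.05. The 12 with the smallest p were Fst, Nodal, Gbx2, Axin2, Dido1, Zeb2, Wnt8a, Gadd45b, Cited2, Ppp1r10, Nlrc4 and Rspo3. No gene of the shared pluripotency, endoderm, neural, fibroblast, mesoderm derivative, imprinted, glycolysis or housekeeping lists passed, and 1 of 16 primed genes did (Sox4). With 1.16% of all genes called, lists this small would mostly hold none, so the lack of calls says little about them. Of 21 naive genes 4 passed: Gbx2, Fgf4, Klf2 and Tbx3. Fgf4 read 9.14 ± 0.10 in untreated cells, 9.22 ± 0.21 with XAV939, 8.65 ± 0.02 with CHIR99021 and 8.76 ± 0.17 with both compounds (limma F adjusted p = 0.0172). Of 66 Wnt genes 6 passed, of 24 Nodal genes 2 and of 42 FGF genes 1, and of the 18 microRNA genes of pluripotent cells 11 passed. Mir302d read 10.77 ± 0.14 in untreated cells, 10.10 ± 0.26 with XAV939, 11.19 ± 0.38 with CHIR99021 and 10.77 ± 0.12 with both (limma F adjusted p = 0.0105). Sp5 and Dkk1, targets of beta-catenin, passed from a background level: Sp5 read 4.34 ± 0.12 in untreated cells and 5.42 ± 0.25 with CHIR99021, and Dkk1 read 4.68 ± 0.01 and 5.05 ± 0.12. Leaving out untreated 1, 2 or 3 gave 157, 124 and 128 genes. Among the treated arrays the count was 116 and 127 without CHIR99021 arrays 2 and 3, 115 and 141 without XAV939 arrays 1 and 3, and 125 without array 2 of both compounds. The filter on dim genes gave 379, and array weights gave 390.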

How the data were processed

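Total RNA of 12 samples was labelled with biotin and hybridised to 1-colour Affymetrix arrays, per the labels' protocols. The table holds 1 deposited value per probe and array, taken as log2 because all values lie between 2.52 and 14.3. The submitters' processing notes name Partek; how background was corrected and arrays were normalized and summarised is not given in the sources used here. Medians of the arrays spanned 5.22 to 5.27, and no normalization was added. Arrays have no read depth, and 3 arrays per group limit the precision.

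Of 35399 probes, 21789 had 1 gene symbol in the platform annotation, 1621 several and 11989 were not listed; 91 with 1 symbol had no RefSeq match. The probe with the highest mean over 12 arrays stood for each of 19938 genes (999 had more than 1 probe). List members without such a probe, among them Tbxt, Tcf7, Gapdh and genes of the miR-290 cluster, were not analysed here.

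Levels, SD and ranks were computed with pandas 2.3.3 in Python 3.11.15. Group means were fitted over 12 arrays and all genes with limma 3.58.1 in R 4.3.3 (lmFit, eBayes, two-sided; residual df 8, prior df 8.03), with Benjamini-Hochberg adjustment over genes and a threshold of 0.05. The fit was tested on simulated data. Figures were drawn with matplotlib 3.10.9. Named were any list members, the 5 markers, the 20 brightest genes, the 12 genes above background with the largest range, and per test up to 8 called genes in each direction or 12 by smallest p; Olfr1372-ps1, the gene families and the microRNA genes outside the lists were chosen after their values were seen. Alternatives were another background percentile or gene set, the number of arrays required, other probe rules, quantile normalization, median centring, a filter on dim genes, a replicate block, array weights, eBayes with a trend and robust fit, and leaving out each array. The members and lists were chosen with earlier results of these data known.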

Additional observations from a re-analysis of the deposited data

How the results depend on the processing

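The count of 11180 genes above background ranged from 8733 to 11643 over its alternatives, and the median SD of 0.09 from 0.06 to 0.09. With the mean of all probes of a gene the percentile ranks became 99.2 for Pou5f1, 98.6 for Sox2, 81.5 for Fgf5 and 90.8 for Otx2, and with quantile normalization the level of Fgf5 became 8.28. The counts of 10 lists near the background, among them naive, streak, endoderm and fibroblast genes, moved by over 1.5 times with a stricter percentile or with keratin-associated, beta-defensin and bitter taste genes as background, as did the neural list with the latter.

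For the mean of the treated groups minus untreated, 32 genes, the filter on dim genes gave 72 and array weights 265, and leaving out each array gave 2 to 44; the median difference of all genes was 0.00 without and 0.04 with that filter. For any difference among the groups, 231 genes, the filter gave 379, array weights 390 and leaving out each array 115 to 183. Quantile normalization, median centring, the mean of all probes, and trend and robust settings kept both counts within 1.5 times. The 32 genes called for the mean of the treated groups kept their sign in all 19 alternative fits, while differences near 0 that were not called, such as those of Mir302a, Mir302b, Mir302c and Mir367, turned in some. A replicate block gave 22 and 146 genes. Same-numbered samples deviated from their group means with correlations of -0.247 to 0.201, against -0.301 to 0.328 for other pairs. The ranges overlap, and they cannot show whether samples of the same number were handled together. The cause of these shifts was not tested. Levels near the threshold have little signal over background.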

Other observations

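The microRNA genes of the imprinted Dlk1-Dio3 region on chromosome 12 stood out among microRNA genes; this was noticed after the values were seen, and it has no test. Of 40 measured genes of the region 27 (67.5%) were above background in untreated cells, with a median of 5.48, against 65 of 257 (25.3%) elsewhere, with a median of 4.56. Mir377 read 10.31, 10.57 and 10.34 on untreated 1, 2 and 3, and its mean of 10.41 was second to that of Mir302d among microRNA genes. Mir382 read 8.70 ± 0.19, Mir341 8.12 ± 0.06 and Mir134 8.01 ± 0.05. The maternally expressed long noncoding RNAs of the region, Meg3 and Rian, read 9.98 ± 0.06 and 7.12 ± 0.17, and the paternally expressed Dlk1 read 7.81 ± 0.16.

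By kind of gene, 57.9% of protein-coding genes, 24.0% of long noncoding RNA genes and 88.7% of small nucleolar RNA genes were above background. Small nucleolar RNA genes had a median of 8.07, and Snora44, at 8.30, 8.83 and 9.28, was among the least repeatable genes. By family, 14 of 17 Klf genes (82.4%) were above background, with Klf6 and Klf10 the brightest at 8.86 each. Of 19 Sox genes 11 (57.9%) were, the same share as for protein-coding genes. Of 9 Pax genes 1 (11.1%, Pax6) and of 12 Tbx genes 4 (33.3%) were.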
